A study of Mus musculus with 6 samples.

Results

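The 32 genes described here carry glucose from the blood to pyruvate, lactate and glycogen. They encode the glucose transporters, the enzymes of glycolysis, the mitochondrial pyruvate carrier and the enzymes that build and break down glycogen. They were taken by gene name from a table of 54532 genes, in which the 32 names matched 33 entries, and 31 of the genes had enough reads to be tested. Gene expression was measured by RNA-seq in whole hearts of 3-month-old male mice on a C57BL/6 background, with 3 mice per genotype. The α1r/rα2s/s mice (resistant; mice 368, 369 and 370) carry the rodent Na/K-ATPase α1, which binds cardiotonic steroids (CTS) such as ouabain with low affinity. The α1s/sα2s/s mice (sensitive; mice 379, 380 and 381) carry amino acid substitutions in both copies of α1 that raise this affinity. Both genotypes carry the CTS-sensitive α2 in both copies, so by their labels they differ in α1 alone, and the study used α1r/rα2s/s littermates as controls. The substitutions are in the germline and so are present in every tissue, and the labels name no treatment.

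Glucose enters cardiomyocytes through GLUT1 and the insulin-responsive GLUT4, is trapped as glucose 6-phosphate by hexokinase, and then feeds either glycolysis or glycogen. The adult heart draws most of its ATP from fatty acids and uses glucose, lactate and glycogen alongside them, and heart muscle expresses muscle or heart forms of many of these enzymes. The comparison asks whether mRNA of this pathway differs between hearts with a CTS-sensitive and a CTS-resistant α1.

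The deposited counts summed to between 19309312 and 20470065 reads per heart, and 14866 genes passed the filter on low counts. Mitochondrially encoded genes took 23.4% to 24.4% of the reads in α1r/rα2s/s hearts and 25.0% to 26.0% in α1s/sα2s/s hearts, without overlap. Hearts of one genotype differed by more than counting error, and the biological coefficient of variation was 11.1%. All 10 cardiomyocyte markers were detected in every heart, and their summed level overlapped between the genotypes (66930 to 80401 CPM in α1r/rα2s/s hearts and 73243 to 79336 CPM in α1s/sα2s/s hearts). Counts per gene do not show the substitutions in α1, so genotypes are those of the labels. CPM are normalized counts scaled to library size, and a log2 fold change is α1s/sα2s/s over α1r/rα2s/s.

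No gene of the pathway passed an adjusted p of 0.05 in edgeR's quasi-likelihood test, in either direction. Of all genes tested, 1.44% passed, 0.78% higher and 0.659% lower in α1s/sα2s/s hearts. DESeq2 also called 0 of the pathway genes, against 3.65% of the 11038 genes to which it gave an adjusted p. At an unadjusted p under 0.05, edgeR had 6 of the 31 genes (19.4%), against 14.5% of all genes. Higher in α1s/sα2s/s hearts were Slc2a1, Pfkfb1, Mpc2 and Pygm (7.19% of all genes met this in that direction), and lower were Hk1 and Hk2 (7.27%). The genotypes did not overlap for 5 of the 31 genes (16.1%), against 20% of all genes. These were Slc2a1, Pfkfb1, Mpc2 and Gyg, which were higher (10% of all genes), and Hk2, which was lower (9.98%). The first share was somewhat above that of all genes and the second somewhat below it.

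The fitted differences were small. They ran from -0.26 to 0.58 on the log2 scale, with a median of 0.08, where the median of all genes was -0.01. The fold change was above 0 for 21 genes and below 0 for 10. The share above 0 was 67.7%. It was 48.4% of all genes and 56.6% of the 7929 genes expressed at or above the level of the lowest pathway gene tested. Most cardiomyocyte markers also had estimates above 0. Of these 10 markers, 2 had estimates below 0, and 1 was higher without overlap. The 95% interval lay within 0.5 of 0 on the log2 scale for 28 genes, so that for these a change of this size or more lies outside the interval. The 3 exceptions were Slc2a1, Pfkfb1 and Bpgm. In bulk RNA from whole hearts, a lower level from fewer cells of a type and one from less RNA per cell cannot be told apart.

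**Figure D1:**
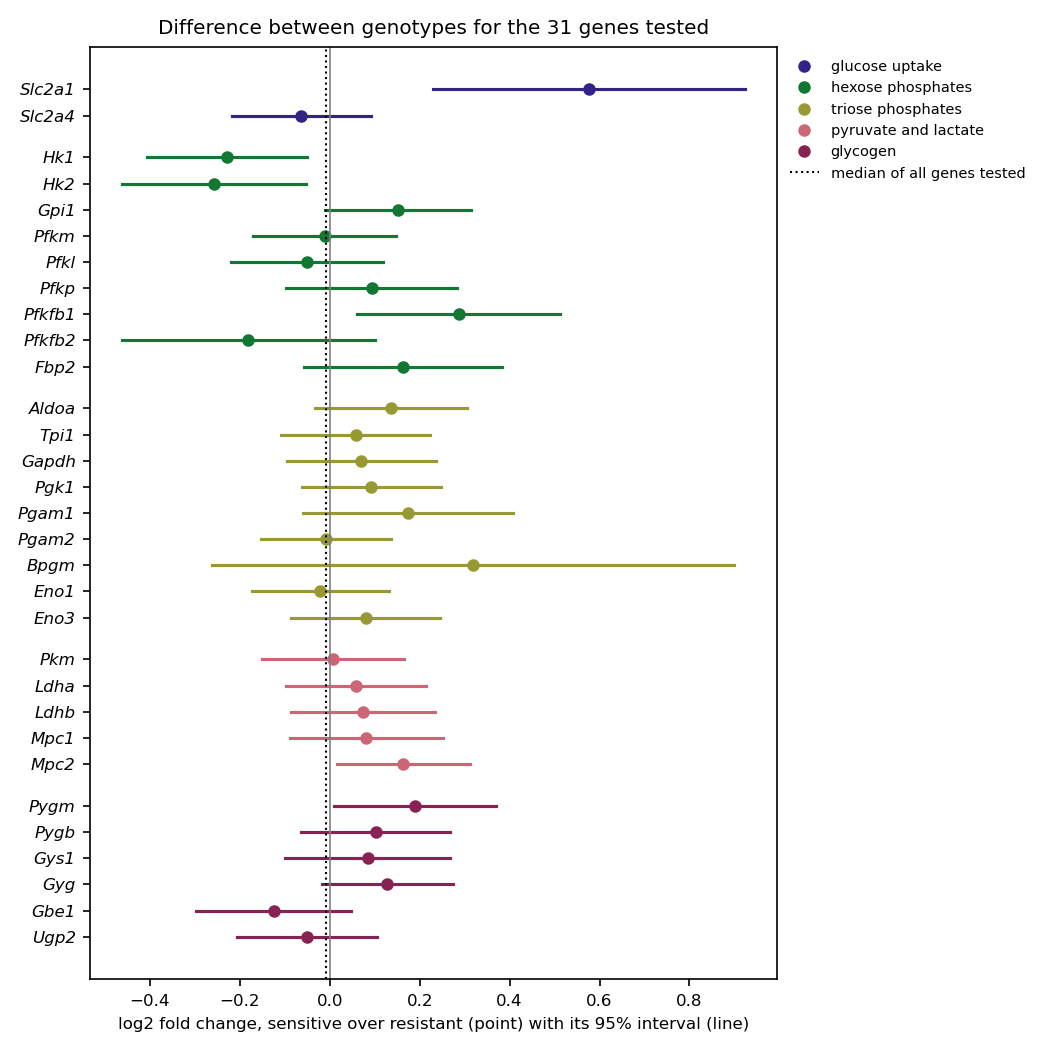
Log2 fold change of each of the 31 genes tested (x axis, α1s/sα2s/s over α1r/rα2s/s) with its 95% interval from edgeR, coloured by step of the pathway. The dotted line is the median of all genes, -0.01, and the points run from -0.26 (Hk2) to 0.58 (Slc2a1).

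Glucose uptake is represented by a pair of transporters, whose estimates had opposite signs. Slc2a1 encodes GLUT1, the transporter of basal glucose uptake, and lies on chromosome 4 from 119108711 to 119137983 (GRCm38, plus strand). Its level was 10.7, 7.17 and 11.5 CPM in α1r/rα2s/s hearts and 16.1, 14.4 and 13.3 CPM in α1s/sα2s/s hearts. Every α1s/sα2s/s heart was above every α1r/rα2s/s heart, and mouse 369 was the lowest. The mean went from 9.79 ± 2.30 to 14.6 ± 1.41 CPM (SD, n = 3). The fitted log2 fold change was 0.58 (standard error 0.16, 95% interval 0.23 to 0.92). Of the 31 genes this was the largest fold change and the smallest p, and the adjusted p was 0.103 in edgeR and 0.0544 in DESeq2. It was 0.00423 in edgeR with no filter on low counts, a setting that called more of all genes. Leaving out any one heart kept the log2 fold change between 0.40 and 0.71.

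Slc2a4 encodes GLUT4, the transporter that insulin and contraction bring to the cell surface, on chromosome 11 from 69942539 to 69948188 (minus strand). It stood at 283, 259.5 and 300.3 CPM in α1r/rα2s/s hearts and at 276, 260.2 and 270.2 CPM in α1s/sα2s/s hearts, so that the genotypes overlapped fully. Its log2 fold change was -0.06 (standard error 0.07, 95% interval -0.22 to 0.09, edgeR adjusted p = 0.737). Per kilobase of gene length, Slc2a4 averaged 79.0 CPM and Slc2a1 3.48 CPM. GLUT1 therefore made up 3.31 ± 0.562% of the transporter mRNA of this pair in α1r/rα2s/s hearts and 5.11 ± 0.419% in α1s/sα2s/s hearts (SD, n = 3). Per heart the share was 3.63%, 2.67% and 3.65% against 5.47%, 5.21% and 4.65%, without overlap. An exact two-sided permutation test gave p = 0.1, the smallest that 3 against 3 hearts allow, and 0.5 after adjustment over the 10 enzyme and transporter families compared.

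Hexokinase and phosphofructokinase commit glucose to the pathway. Both hexokinases had estimates on the other side of 0 from Slc2a1. Hk1, the form found in most tissues, lies on chromosome 10 from 62268855 to 62379908 (minus strand) and had 125, 135 and 154 CPM in α1r/rα2s/s hearts against 112, 127 and 114 CPM in α1s/sα2s/s hearts. Mouse 380 overlapped mouse 368. The log2 fold change was -0.23 (standard error 0.08, 95% interval -0.41 to -0.05, edgeR adjusted p = 0.211).

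Hk2, the form of insulin-responsive muscle, lies on chromosome 6 from 82725025 to 82774454 (minus strand). It had 299, 293 and 392 CPM in α1r/rα2s/s hearts and 274, 279 and 271 CPM in α1s/sα2s/s hearts. The genotypes did not overlap, and mouse 370 stood well above the other two α1r/rα2s/s hearts. The Hk2 estimate on the log2 scale was -0.26 (standard error 0.10, 95% interval -0.46 to -0.05, edgeR adjusted p = 0.223, or 0.0398 with no filter on low counts). Without mouse 370 the log2 fold change was -0.11 for Hk2 and -0.14 for Hk1. Hk1 made up 22.8 ± 1.43% of hexokinase mRNA per kilobase in α1r/rα2s/s hearts and 23.0 ± 0.978% in α1s/sα2s/s hearts (exact permutation test, p = 0.9), so the shares overlapped while both estimates lay below 0.

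The bases upstream of these 3 genes are shown because Slc2a1 and the hexokinases had the smallest p of the pathway in each direction. They are from RefSeq on GRCm38.p6, at chr4:119108495-119108744 (plus strand), chr10:62340422-62340671 (minus strand) and chr6:82774455-82774704 (minus strand). The 250 bases before a RefSeq start are written 5′ to 3′ on the strand of the gene. Hk1 has a second start whose upstream bases hold no match. Capitals mark ACGTG or GCGTG, the core letters of the hypoxia response element, on either strand (CACGT and CACGC on the other).
Slc2a1: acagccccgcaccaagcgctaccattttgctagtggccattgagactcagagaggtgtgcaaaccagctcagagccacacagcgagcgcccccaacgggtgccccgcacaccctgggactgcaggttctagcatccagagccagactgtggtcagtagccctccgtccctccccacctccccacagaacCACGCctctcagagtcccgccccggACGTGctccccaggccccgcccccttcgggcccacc
Hk1: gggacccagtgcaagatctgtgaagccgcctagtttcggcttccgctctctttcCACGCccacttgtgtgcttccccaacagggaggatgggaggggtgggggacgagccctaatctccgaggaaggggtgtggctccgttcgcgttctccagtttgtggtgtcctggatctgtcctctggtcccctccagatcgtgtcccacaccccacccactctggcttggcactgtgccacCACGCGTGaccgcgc
Hk2: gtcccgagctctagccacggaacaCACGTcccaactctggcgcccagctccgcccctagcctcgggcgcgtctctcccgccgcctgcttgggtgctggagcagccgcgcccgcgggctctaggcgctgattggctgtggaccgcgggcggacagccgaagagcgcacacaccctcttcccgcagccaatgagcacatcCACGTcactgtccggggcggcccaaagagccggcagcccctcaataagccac
ACGTG stood in 20 of the 49 windows of the pathway genes (40.8%), each reaching from 250 bases before to 50 after a start, and in 19.6% of all 32851 RefSeq windows. GCGTG stood in 26 (53.1%) against 32.4%, and CACGTG, the E-box, which contains ACGTG, in 5 (10.2%) against 7.15%. The windows cover 31 of the genes and several overlap. A match describes the letters only. Slc2a1, which was higher in α1s/sα2s/s hearts, and Hk2, which was lower, both held ACGTG.

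Phosphofructokinase was measured as its 3 subunits. Pfkm, the muscle subunit of phosphofructokinase, lies on chromosome 15 from 98092589 to 98132451 (plus strand). It had 867, 818 and 934 CPM against 880.2, 818 and 899 CPM, and a log2 fold change of -0.01 (standard error 0.07, 95% interval -0.17 to 0.15, edgeR adjusted p = 0.96). Pfkm made up 93.2 ± 0.168% and 93.2 ± 0.544% of phosphofructokinase mRNA per kilobase in the genotypes (exact permutation test, p = 1.0). Pfkl and Pfkp, the liver and platelet subunits, had log2 fold changes of -0.05 and 0.09. Pfkp shares 748 bases of exon with Pitrm1 on the other strand. The reads of the overlap cannot be assigned without knowing whether strand was counted. The same holds for Pfkfb1 (123 bases with Apex2) and Gys1 (310 bases with Ruvbl2), among other genes of the pathway.

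Pfkfb1 and Pfkfb2 encode enzymes that make and break fructose 2,6-bisphosphate, an activator of phosphofructokinase. Pfkfb1, on chromosome X from 150588229 to 150643878 (plus strand), had 16.4, 19.8 and 19.4 CPM in α1r/rα2s/s hearts and 24.0, 21.3 and 22.6 CPM in α1s/sα2s/s hearts, without overlap. The log2 fold change was 0.29 (standard error 0.11, 95% interval 0.06 to 0.51, edgeR adjusted p = 0.219). Pfkfb2, the heart form, ranged from 54.0 to 78.7 CPM in α1r/rα2s/s hearts and from 47.4 to 66.3 CPM in α1s/sα2s/s hearts, and its log2 fold change of -0.18 went to -0.00 without mouse 370. The Pfkfb1 share of the pair was 34.6 ± 4.65% and 42.2 ± 5.57% (SD, n = 3, exact permutation test, p = 0.2). Gpi1, the isomerase of glucose 6-phosphate, and Fbp2, the muscle fructose bisphosphatase, had log2 fold changes of 0.15 and 0.16 (edgeR adjusted p of 0.382 and 0.501). That of Gpi1 was 0.24 without mouse 370, and that of Fbp2 was 0.10 without mouse 369 and 0.08 without mouse 381.

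The steps from aldolase to enolase gave 9 genes tested, of which none had an unadjusted p under 0.05 and none separated the genotypes. Their median log2 fold change was 0.08. Gapdh, glyceraldehyde-3-phosphate dehydrogenase, was also the reference gene of the RT-qPCR in the study and lies on chromosome 6 from 125161715 to 125166467 (minus strand). It had 1957, 2099 and 2298 CPM in α1r/rα2s/s hearts and 2112, 2246 and 2311 CPM in α1s/sα2s/s hearts. The genotypes overlapped, with a log2 fold change of 0.07 (standard error 0.08, 95% interval -0.10 to 0.24, edgeR adjusted p = 0.728). Its coefficient of variation over the 6 hearts was 6.38%, against a median of 7.33% over the pathway genes. By sequence, 89 pseudogenes resemble Gapdh, and their reads came to 0.483% of those of Gapdh. Some, such as Gm10359, are 100% identical to it over 1002 bases. The handling of reads with several matches is not given, so this percentage cannot show whether Gapdh itself lost reads.

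Aldoa, aldolase A, had the highest read count after Gapdh, with 1515 to 1811 CPM in α1r/rα2s/s hearts and 1748 to 1908 CPM in α1s/sα2s/s hearts (log2 fold change 0.14, edgeR adjusted p = 0.451). Aldoc, a brain aldolase, had between 0 and 3 reads per heart and was not tested, so nearly all aldolase mRNA measured was Aldoa. A second, short entry named Aldoa (ENSMUSG00000114515) had 1 to 9 reads per heart and was not tested. In the deposited counts, the mutase and enolase pairs were dominated by the muscle genes. Pgam1, the form found outside muscle, made up 2.67 ± 0.191% and 3.02 ± 0.217% of phosphoglycerate mutase mRNA per kilobase (exact permutation test, p = 0.2). Eno1, the form found in most tissues, made up 4.21 ± 0.270% of enolase mRNA in α1r/rα2s/s hearts and 3.94 ± 0.0688% in α1s/sα2s/s hearts, without overlap (exact permutation test, p = 0.1, adjusted p = 0.5). Pgam1 and Eno1 have near-identical copies, among them Pgam1-ps2 (100% over 765 bases, 12 reads) and Eno1b (99.5% over 1736 bases, 13 reads). None was found for Pgam2 and Eno3. How reads with several matches were counted is not given, so the Pgam1 and Eno1 shares may be undercounted.

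Bpgm was singled out after its values were seen, because it varied most. It encodes bisphosphoglycerate mutase, which makes the 2,3-bisphosphoglycerate of erythrocytes, and lies on chromosome 6 from 34476207 to 34505613 (plus strand). It had 26.3, 36.4 and 25.1 CPM in α1r/rα2s/s hearts and 28.4, 60.4 and 20.7 CPM in α1s/sα2s/s hearts, a coefficient of variation of 43.9%. Mouse 380 was the highest, mouse 369 the next and mouse 381 the lowest. The 6 erythrocyte markers, which are globins, Alas2 and Slc4a1, summed to 954, 1274 and 537 CPM against 797, 3190 and 401 CPM. Mice 380 and 369 were again the highest and mouse 381 the lowest. The log2 fold change of Bpgm was 0.32 (standard error 0.27, 95% interval -0.26 to 0.90, edgeR adjusted p = 0.639), and it became -0.25 without mouse 380. The part of erythrocyte RNA in the Bpgm values was not tested.

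Pyruvate is made by Pkm, reduced by lactate dehydrogenase or imported into mitochondria by the pyruvate carrier. All 5 genes of this step had a log2 fold change above 0, with a median of 0.07. Of all genes expressed at or above the level of the lowest pathway gene tested, 56.6% were above 0. Pkm was close to 0, at 0.01 (edgeR adjusted p = 0.974), and ran from -0.027 to 0.064 without single hearts. Ldha, on chromosome 7 from 46841475 to 46855627 (plus strand), encodes the subunit that favours lactate formation. Its 481, 474 and 508 CPM in α1r/rα2s/s hearts overlapped the 487, 488 and 549 CPM in α1s/sα2s/s hearts (log2 fold change 0.06, standard error 0.07, 95% interval -0.10 to 0.21, edgeR adjusted p = 0.767). Ldhb, the heart subunit, on chromosome 6 from 142490249 to 142507957 (minus strand), had 1213, 1210.1 and 1324 CPM against 1268, 1259 and 1418 CPM. Its log2 fold change was 0.07 (standard error 0.08, 95% interval -0.09 to 0.23, edgeR adjusted p = 0.7). The heart subunit dominated, and Ldha made up 15.6 ± 0.210% and 15.5 ± 0.0726% of lactate dehydrogenase mRNA per kilobase (SD, n = 3, exact permutation test, p = 0.3).

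Mpc2, one of the subunits of the mitochondrial pyruvate carrier, lies on chromosome 1 from 165460637 to 165481214 (plus strand). It had 193, 189 and 207 CPM in α1r/rα2s/s hearts and 221, 210.3 and 228 CPM in α1s/sα2s/s hearts. The genotypes did not overlap, but mouse 370 and mouse 380 were close. The log2 fold change was 0.16 (standard error 0.07, 95% interval 0.02 to 0.31, edgeR adjusted p = 0.287), and it stayed between 0.14 and 0.21 when any one heart was left out. Mpc1, its partner, had a log2 fold change of 0.08 (edgeR adjusted p = 0.685), or 0.05 with the reads of its pseudogene Mpc1-ps added. That copy, 99.7% identical over 330 bases, had 3498 reads against 21454 for Mpc1, and how the counting placed reads with several matches is not given in the sources used here.

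Glycogen is started by glycogenin, extended by glycogen synthase and cleaved by glycogen phosphorylase. Pygm, the muscle phosphorylase, lies on chromosome 19 from 6384399 to 6398459 (plus strand). It had 807, 767 and 956 CPM in α1r/rα2s/s hearts and 920.5, 994 and 971 CPM in α1s/sα2s/s hearts. Only mouse 370 of the α1r/rα2s/s hearts reached the α1s/sα2s/s range. The log2 fold change was 0.19 (standard error 0.08, 95% interval 0.01 to 0.37, edgeR adjusted p = 0.319), and 0.29 without mouse 370. Per kilobase, Pygm averaged 281 CPM and Pygb, the brain phosphorylase, 178 CPM. Pygm made up 60.4 ± 1.39% and 61.9 ± 1.497% of the pair per kilobase (exact permutation test, p = 0.4).

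Gyg, glycogenin, lies on chromosome 3 from 20122084 to 20155317 (minus strand). It had 126, 131 and 136.6 CPM in α1r/rα2s/s hearts and 137.1, 147 and 147 CPM in α1s/sα2s/s hearts. The genotypes were separated by less than 1 CPM. Its log2 fold change was 0.13 (standard error 0.07, 95% interval -0.02 to 0.27, edgeR adjusted p = 0.406). Gys1, the muscle glycogen synthase, on chromosome 7 from 45434844 to 45456619 (plus strand), had 83.9, 88.0 and 100.03 CPM against 98.3, 86.0 and 104 CPM (log2 fold change 0.08, standard error 0.09, 95% interval -0.10 to 0.27, edgeR adjusted p = 0.703). Gbe1, the branching enzyme, and Ugp2, which makes UDP-glucose, had log2 fold changes of -0.12 and -0.05, and that of Gbe1 was -0.06 without mouse 370. The pathway genes together took 1.35% to 1.44% of the reads in α1r/rα2s/s hearts and 1.36% to 1.39% in α1s/sα2s/s hearts.

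**Figure D2:**
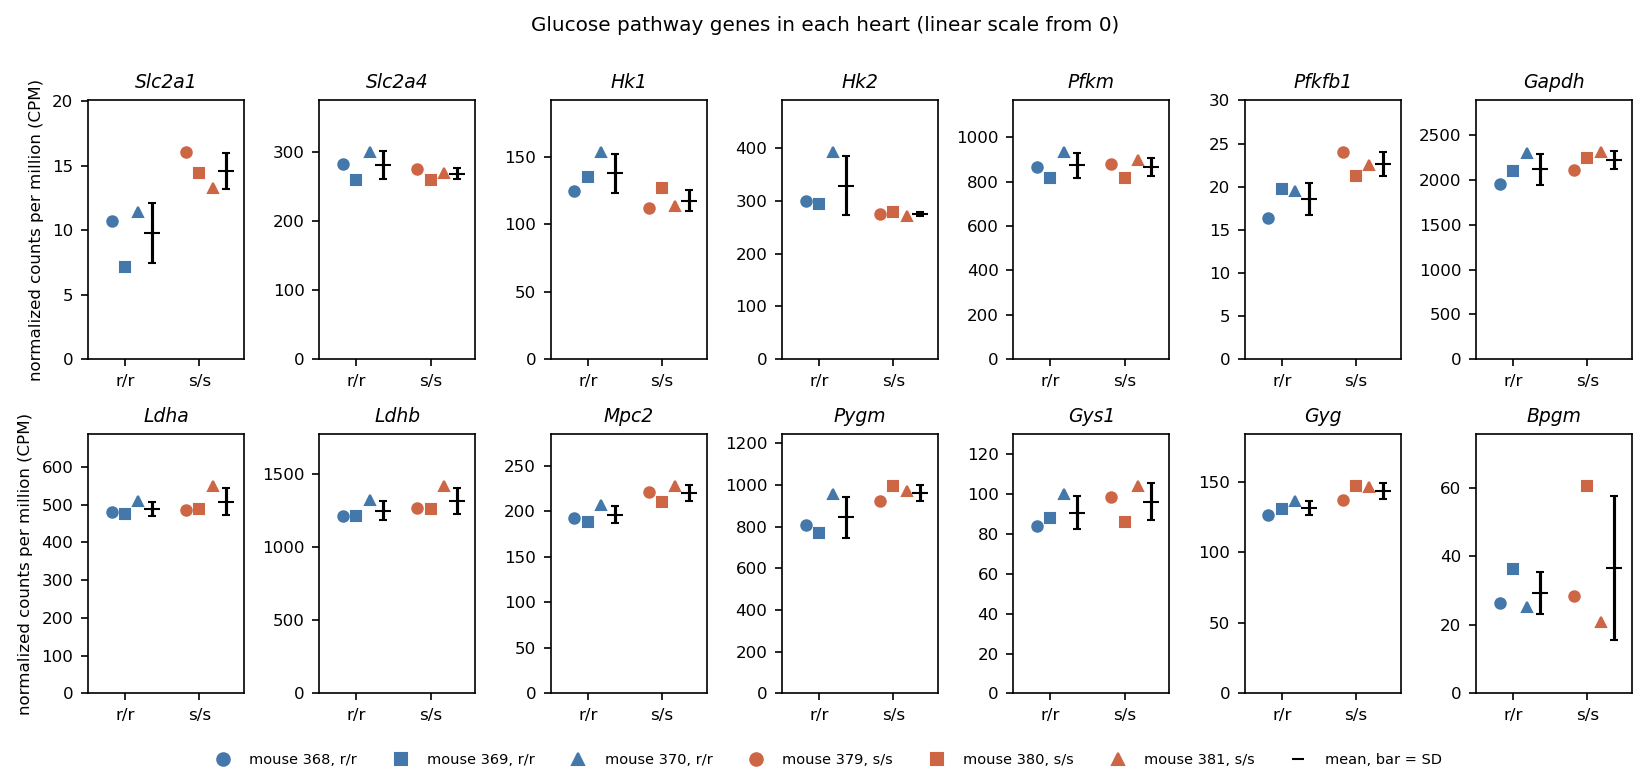
Normalized CPM in each heart (y axes, linear from 0) for the 14 genes given heart by heart, with α1r/rα2s/s in blue and α1s/sα2s/s in red, a marker shape per mouse and the mean with its SD (n = 3) in black. Slc2a1 is higher in every α1s/sα2s/s heart, Hk2 is high in mouse 370 (392 CPM) and Bpgm in mouse 380 (60.4 CPM).

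Within each genotype the genes of the pathway tended to rank the hearts alike. Mouse 370 had the highest level of the α1r/rα2s/s hearts for 27 of the 31 genes, where this heart was the highest for 35.1% of all genes tested. Mouse 369 was the lowest for 20 of the 31 (33.9% of all genes). Among α1s/sα2s/s hearts, mouse 381 was the highest for 19 of the 31 (35.7% of all genes). The median gene of the pathway stood 0.10 above the mean of its genotype in mouse 370 and 0.07 below it in mouse 369, on the scale of log2(CPM + 0.5). In mouse 381 it stood 0.05 above. The 10 cardiomyocyte markers singled out the same hearts, with mouse 370 the highest for 9, mouse 369 the lowest for 9 and mouse 381 the highest for 9. The part of cardiomyocyte RNA in the levels of the glucose genes was not tested. Without mouse 370 the median log2 fold change of the pathway went from 0.08 to 0.14, and no gene passed the test.

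**Figure D3:**
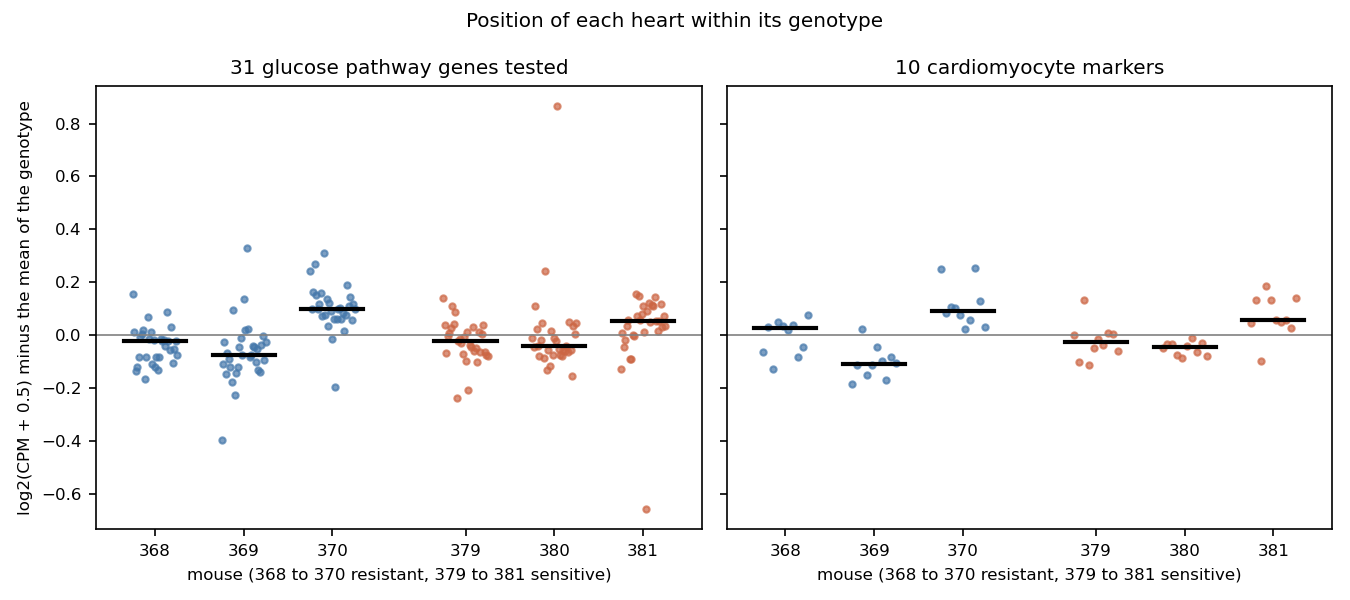
Position of each heart relative to the mean of its genotype, in log2(CPM + 0.5), for the 31 pathway genes tested (left) and the 10 cardiomyocyte markers (right), with 1 point per gene and the median as a black bar. Mouse 370 is the highest α1r/rα2s/s heart in both panels, and mouse 381 the highest α1s/sα2s/s heart.

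Levels differed far more between genes than between genotypes. Per kilobase of gene length as the table gives it, the most abundant mRNAs were Ldhb (817 CPM), Aldoa (596 CPM), Gapdh (525 CPM) and Eno3, the muscle enolase (512 CPM). Pgam2, the muscle mutase, followed at 347 CPM. The least abundant gene tested was Slc2a1 at 3.48 CPM per kilobase. The table counts every exon of a gene as its length, and with the length of the principal transcript instead the order was Gapdh (1529 CPM), Aldoa (1148 CPM), Ldhb (983 CPM) and Eno3 (569 CPM). That length also moved the Hk1 share of the hexokinases to 37.8% and the Mpc1 share of the carrier from 75.7% and 74.6% in the genotypes to 47.9% over all hearts. Other shares moved too, over all hearts to 9.21% for Eno1, 22.3% for Ldha and 46.6% for Pfkfb1.

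**Figure D4:**
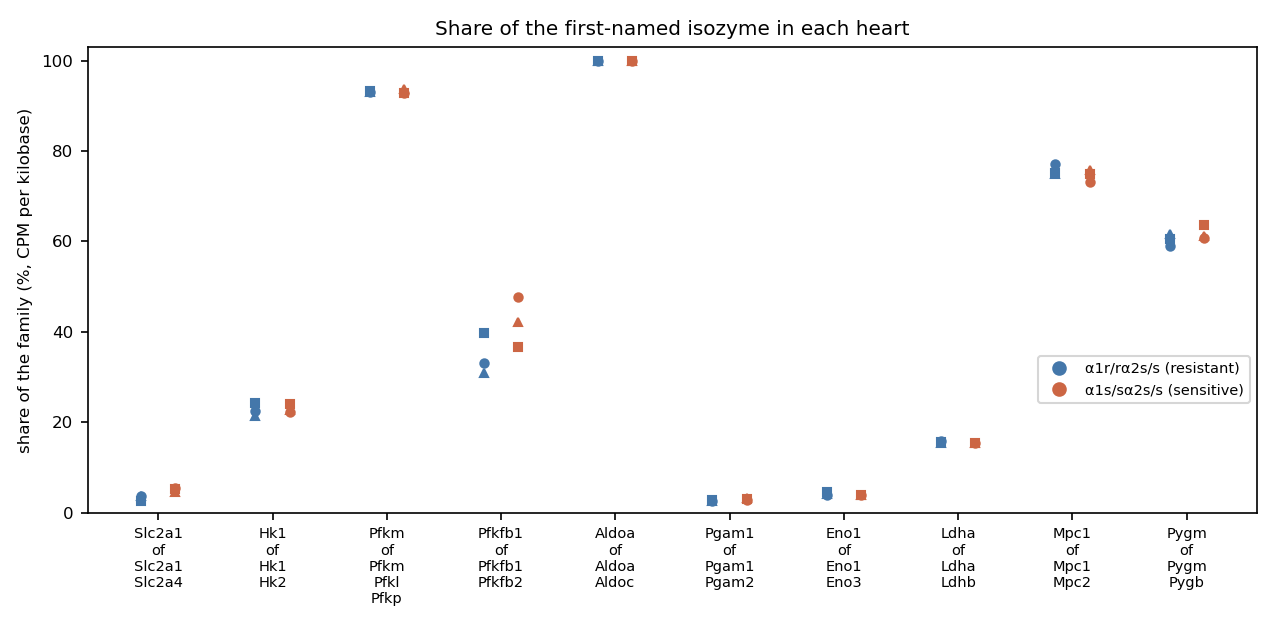
Share of the first-named gene in each of 10 families, in percent of the CPM per kilobase of the family, with 1 point per heart (α1r/rα2s/s in blue, α1s/sα2s/s in red). Pfkm, Aldoa, Mpc1 and Pygm hold most of their families, and the Slc2a1 share is 3.31% and 5.11% in the genotypes. With the length of the principal transcript, which is not drawn, the Mpc1 share is 47.9%.

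Around these genes, 125 further genes of the same pathways were examined in 9 lists, and 117 were tested. edgeR called 0 of them and DESeq2 called 2, against 3.65% of all genes to which it gave an adjusted p. At an unadjusted p under 0.05 there were 26 (22.2%, against 14.5% of all genes), 13 higher and 13 lower in α1s/sα2s/s hearts. The genotypes did not overlap for 27 (23.1%), against 20% of all genes. Their median log2 fold change was 0.03. The smallest p values were among the genes of glycogen synthesis and its regulation, where 3 of 12 genes were higher and 1 lower at an unadjusted p under 0.05 (7.19% and 7.27% of all genes) and 6 separated the genotypes (20% of all genes).

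Those genes encode subunits of protein phosphatase 1, which the Ppp1r3 proteins bring to glycogen. Ppp1r3a, the muscle subunit, had 206, 217 and 214 CPM in α1r/rα2s/s hearts and 239, 259 and 285 CPM in α1s/sα2s/s hearts. Its log2 fold change was 0.30 (standard error 0.07), with an adjusted p of 0.0657 in edgeR and 0.00325 in DESeq2. All α1s/sα2s/s hearts were above all α1r/rα2s/s hearts. Leaving out single hearts gave log2 fold changes between 0.23 and 0.36. Ppp1r3c, a subunit found in many tissues, was lower in every α1s/sα2s/s heart, with 99.3, 93.7 and 126 CPM against 64.2, 91.6 and 70.4 CPM (log2 fold change -0.50, standard error 0.12, adjusted p of 0.0662 in edgeR and 0.204 in DESeq2). Mouse 380 came close to the α1r/rα2s/s hearts. Leaving out single hearts gave Ppp1r3c log2 fold changes from -0.65 to -0.35, and without mouse 380 the edgeR adjusted p was 0.0203.

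Also at an unadjusted p under 0.05 in this list were Ppp1r3d, with a log2 fold change of 0.38 (edgeR adjusted p = 0.162), and Ppp1ca, a catalytic subunit, with 0.20 (edgeR adjusted p = 0.216). Both were higher in every α1s/sα2s/s heart. So were the other catalytic subunits Ppp1cb and Ppp1cc, named after their values were seen, with log2 fold changes of 0.08 and 0.14 (edgeR adjusted p of 0.626 and 0.382). Ppp1r3b, the liver subunit, overlapped between the genotypes (log2 fold change 0.11, edgeR adjusted p = 0.661).

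**Figure D5:**
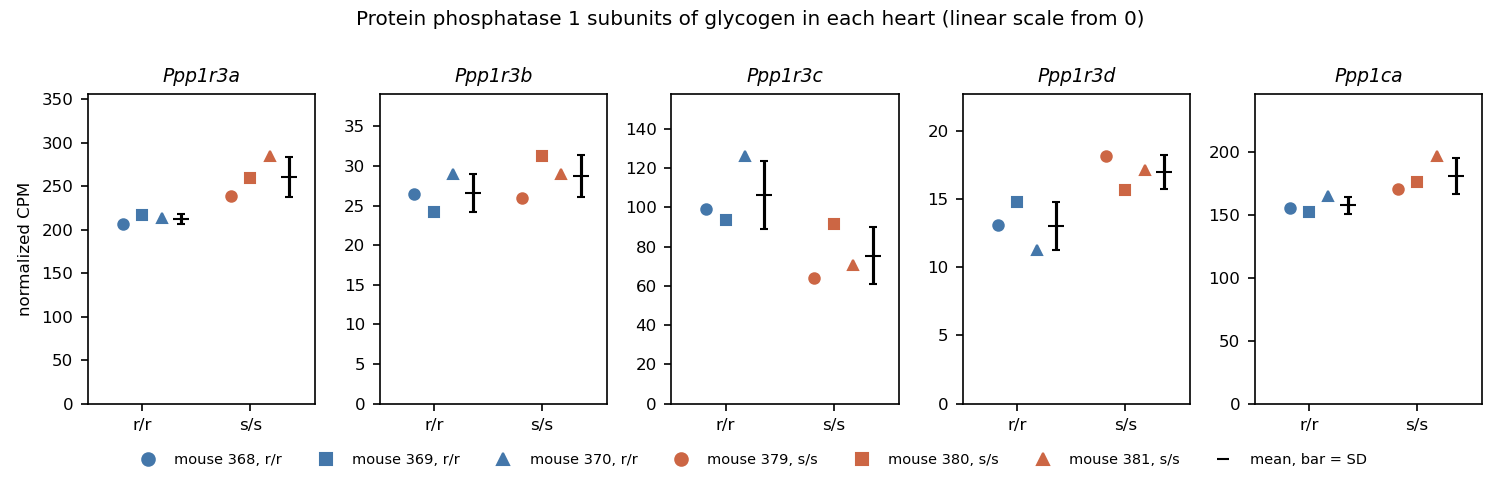
Normalized CPM in each heart (y axes, linear from 0) of 4 glycogen-targeting subunits and a catalytic subunit of protein phosphatase 1, with the mean and SD (n = 3) in black. Ppp1r3a is higher and Ppp1r3c lower in every α1s/sα2s/s heart, and neither passes the threshold of 0.05 in edgeR.

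Among the transcriptional regulators of glucose genes, Mlxip, which encodes the glucose-sensing factor MondoA, was the second gene called by DESeq2. It had 60.7, 63.8 and 54.9 CPM against 75.5, 73.6 and 70.3 CPM (log2 fold change 0.29, standard error 0.08, adjusted p of 0.0821 in edgeR and 0.0301 in DESeq2). Klf15, a Krüppel-like factor that raises GLUT4 expression, had a log2 fold change of 0.38 (edgeR adjusted p = 0.155). Without single hearts its estimate ran from 0.28 to 0.56, the latter without mouse 370, where the edgeR adjusted p was 0.0283. Both were higher on average in α1s/sα2s/s hearts, and only Mlxip separated the genotypes.

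In the other lists, the genes with the smallest p included Pfkfb4 (log2 fold change -0.52) among further isozymes of glycolysis. For lactate export and oxidation they were the monocarboxylate transporter Slc16a7 (-0.50) and Emb (-1.40), a partner protein of such transporters with a mean of 2.18 and 0.829 CPM in the genotypes, whose estimate was -2.41 without mouse 380. Among the genes of glycogen breakdown was Calm2 (-0.18), a calmodulin gene, whose protein is part of phosphorylase kinase. The insulin and AMPK genes were led by Irs2 (-0.43), an insulin receptor substrate, and Pik3ca (0.18). The Irs2 estimate was -0.65 without mouse 379, with an edgeR adjusted p of 0.0276, and -0.28 without mouse 381. For the pentose phosphate pathway the genes were Rpe (-0.29) and Pgls (0.19), for the polyol and hexosamine branches Pgm3 (-0.58) and Gfpt2 (0.26), and for the cytosolic NADH shuttles Gpd1 (0.22) and Gpd1l (-0.18). With all 6 hearts, the lowest edgeR adjusted p among these 12 genes was 0.160, for Slc16a7.

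Markers of other cells were compared beside these values. The summed levels of atrial, fibroblast, smooth muscle, macrophage, endothelial, erythrocyte, adipocyte and glial or neuronal markers overlapped between the genotypes. Single markers within these sums were lower without overlap, namely Myl7, Col1a1 and the endothelial Kdr (log2 fold change -0.50, edgeR adjusted p = 0.0694). The adipocyte Plin1, with a mean of 0.569 CPM, was higher without overlap (log2 fold change 1.32, edgeR adjusted p = 0.266). Over all lists, 3 of 45 markers tested were lower and 3 higher without overlap, against 20% of all genes in both directions together. Of the 5 endothelial markers, 3 had estimates below 0. All 4 atrial, all 4 macrophage and all 3 smooth muscle markers had estimates below 0. All 6 erythrocyte and all 3 adipocyte markers tested had estimates above 0. The part of these cell types in the levels of the glucose genes was not tested. The 10 skeletal muscle markers summed to 19.3 to 20.6 CPM in α1r/rα2s/s hearts and 25.9 to 28.8 CPM in α1s/sα2s/s hearts, without overlap. Mybpc2, a myosin-binding protein, gave most of this sum (log2 fold change 0.50, edgeR adjusted p = 0.0216) and was the one marker of all lists to pass the test in edgeR. DESeq2 called 5 of the 45 markers that edgeR tested, against 3.65% of the genes to which it gave an adjusted p. Besides Mybpc2, these were lower in α1s/sα2s/s hearts. They were the atrial Myl7 (log2 fold change -0.55), the fibroblast gene Col1a1 (-0.41), the smooth muscle gene Acta2 (-0.45) and the macrophage gene C1qa (-0.46). Of the 4 fibroblast markers, 2 had estimates below 0, and Pdgfra (0.14) and Dcn (0.06) lay above it. The other 9 skeletal muscle markers had means below 1 CPM over the 6 hearts, and the defining genes Myh4 and Tnnc2 were at 0 in every heart. Several glucose genes, among them Pygm and Eno3, are also expressed in skeletal muscle.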

How the data were processed

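RNA was extracted from whole hearts with Trizol and a column kit and sequenced on the Illumina NovaSeq system by a company, which also mapped and counted the reads. The authors deposited raw counts per gene without normalization. The submitters' processing notes name fastp, STAR, featureCounts and mm10. Versions, the annotation, strand and multi-mapping settings are not given in the sources used here. A second deposited table holds the authors' own DESeq2 comparison, with fold changes and p-values, and was not used. Coordinates are those of the table, and 32 of the 33 entries of the pathway have the same in GENCODE M21 (GRCm38), Pgam1 being the exception.

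Groups were those of the labels, with 1 library per mouse. Counting error between replicates was checked by chi-square, which was 6.85 to 13.1 per gene. Counts were tested in R 4.3.3 with edgeR 4.0.16 (TMM, filterByExpr with a minimum count of 10 and a minimum total of 15, quasi-likelihood F test), adjusted by Benjamini-Hochberg over the 14866 genes tested at a threshold of 0.05. The standard error was the size of the log2 fold change divided by the square root of F. Isozyme shares used CPM per kilobase of the gene length in the table and exact permutation tests in SciPy 1.17.1. Near-identical copies were found with blastn 2.17.0 (at least 95% identity over 200 bases). Promoter windows were those of RefSeq, and the windows available here included none for Slc2a4. The tests were checked on simulated counts with 1 dispersion for all genes and changes of 1 on the log2 scale. These changes were larger than any fitted difference of the pathway genes, so the check does not cover differences of that smaller size. Alternatives were DESeq2 1.42.0, RLE and upper-quartile factors, no filter on low counts and the robust prior. Further ones were leaving out mitochondrially encoded and globin genes, adding the reads of copies and leaving out each heart. Adding copies found by sequence and the principal transcript length were chosen after seeing the data.

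The genes, lists and tests were chosen with earlier results of these data known. Values in every heart were given for genes with an unadjusted p under 0.05 or no overlap, and for both transporters, both hexokinases, Pfkm, Gapdh, Ldha, Ldhb, Pygm and Gys1. Of each list of further genes, the 2 with the smallest p were to be named, of which some single genes are not reported here.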

Additional observations from a re-analysis of the deposited data

How the results depend on the processing

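With 3 hearts per genotype and a coefficient of variation of 11.1%, the width of the 95% intervals sets what was measurable for each gene. No paired analysis was possible because the labels number each mouse separately and share no number between genotypes. Of the 31 genes, 22 kept the sign of their fold change in all 14 alternatives and 9 did not, and 18 of 434 values changed sign. Another scaling moved the median of all genes by at most 0.013 on the log2 scale. The causes of the changes given here were not tested, and isozyme shares not named kept their direction.

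The count of pathway genes called stayed at 0 (0 to 0 without single hearts) except with no filter on low counts, which called 2, Slc2a1 and Hk2. That fit also called more of all genes, 618 against 214 with the filter, and its share of the genes it tested is not reported here. The count of further pathway genes was 2 in DESeq2, 7 with no filter, 1 with the robust prior (Ppp1r3a) and 0 to 1 without single hearts. Of all genes, 214 were called, 403 in DESeq2, 618 with no filter and 80 to 158 without single hearts. The median log2 fold change of the pathway was 0.02 to 0.14 without single hearts.

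Leaving out a single heart moved the log2 fold change by over 1.5 times for 26 of the 31 genes, and for 5 (Slc2a1, Pfkfb1, Pgam1, Mpc2 and Gyg) it did not. Where signs changed, the log2 fold change was -0.053 to 0.044 for Pfkm, -0.11 to 0.015 for Pfkl, -0.019 to 0.12 for Tpi1, -0.045 to 0.028 for Pgam2, -0.25 to 0.60 for Bpgm, -0.067 to 0.014 for Eno1, -0.027 to 0.064 for Pkm, -0.00040 to 0.093 for Ldha and -0.084 to 0.0062 for Ugp2 over the fits without single hearts. Upper-quartile factors gave -0.0049 for Pkm. The difference in isozyme share in percentage points was -0.438 to 0.977 for Hk1, -0.000808 to 0.0029 for Aldoa and -0.311 to 0.171 for Pfkm without single hearts, and for Pfkm -0.186 in raw counts and -0.125 with the principal transcript length.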
